A study of Mus musculus with 6 samples.

Results

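The E2 ubiquitin-conjugating enzymes were examined as a gene family in E14 mouse embryonic stem cells (ESCs), using 33 genes chosen by symbol from the 37620 genes of the count table. The members are *Cdc34*, *Birc6* and 31 genes whose symbols begin with *Ube2*, and each of the 33 symbols was found in the table by its Ensembl identifier. PolyA RNA came from 3 wild-type and 3 *Ube2d3*-S138A libraries, and the mutant protein has alanine in place of the serine that the name S138A marks. All cells were of strain 129/Ola and grew in 15% FBS, and both groups carry the same ERCC spike-in addition. The mutation was made with CRISPR/Cas9, and the study followed 1 S138A clone in its functional work. Whether that clone was the one sequenced is not stated, and the mutation and a difference between clones cannot be told apart here. The columns of the mutant libraries carry no replicate label and are called S138A A, B and C. Nothing in the labels says whether libraries of a genotype are separate cultures, so the p-values measure the spread between libraries, which may be technical.

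An E2 enzyme accepts activated ubiquitin from an E1 enzyme onto a cysteine and passes it on to a substrate, usually with the help of an E3 ligase that selects the substrate. Which E2 is used influences whether a substrate receives a single ubiquitin or a chain, and which kind of chain is built. A few members of the family carry other modifiers instead, with NEDD8 carried by UBE2M and UBE2F and ISG15 by UBE2L6. UBE2D3, the protein altered in these cells, belongs to the UBE2D group, which works with RING-type ligases of many kinds.

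The position that was edited sets *Ube2d3* apart from its closest relatives, so the ends of the coding sequences are shown first. The lines give codons 131 to 147 and the stop codon, 5′ to 3′, from GENCODE M21 transcripts (GRCm38), and the codon of the S138A site is in capitals.
*Ube2d3*: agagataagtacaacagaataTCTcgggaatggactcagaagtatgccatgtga
*Ube2d1*: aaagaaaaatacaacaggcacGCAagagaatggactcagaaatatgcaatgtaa
*Ube2d2b*: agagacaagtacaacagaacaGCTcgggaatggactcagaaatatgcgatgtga
The codon at this site encodes serine in *Ube2d3* and alanine in the other 3 genes, including *Ube2d2a*, whose sequence is not printed. Each coding sequence has 444 bases with the stop codon. Against *Ube2d3*, 101 bases differ in *Ube2d1*, 61 in *Ube2d2a* and 75 in *Ube2d2b*, which is 77.3%, 86.3% and 83.1% identity. With all annotated transcripts cut into overlapping windows of 50 bases, 3.48% of the windows of *Ube2d3* occur in a transcript of another gene, 4.73% of those of *Ube2d2a*, and 0% of those of *Ube2d1* and *Ube2d2b*. The genes sharing windows with *Ube2d3* were led by *Spopl* and hold none of the other UBE2D genes among the first 4. Transcripts with retained introns count among these windows, and the share within coding transcripts alone was not computed.

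The libraries held between 33227593 and 37169770 counts, and 16023 genes, 32 of them E2 members, passed the filter on low counts. Levels are given as CPM, counts scaled to the size of the library with TMM factors. Of the variance of log2 CPM, 57.2% lay on a first principal component that set wild-type 3 and S138A C apart from the other 4 libraries, and 25.6% on a second component that separated the genotypes. Fits with a block on the last digit of the column name, called the replicate block, or with the other 4 libraries alone, are described with the members. Summed over 8 pluripotency markers, the level was 5077 to 5871 TMM-scaled CPM in wild-type against 5117 to 5481 in S138A libraries, with *Pou5f1* at 1270 ± 221 and 1266 ± 270.2 CPM (SD, n = 3 each). Of these, *Zfp42* was lower without overlap, at 925 and 726 CPM, and the others overlapped, among them *Klf4* at 205 and 272. Summed levels of 7 fibroblast markers were 40.7 to 64.6 CPM in wild-type against 68.2 to 112 in S138A libraries. Of the 7, 3 (*Col1a1*, *Col3a1* and *Thy1*) were higher without overlap, as 11.3% of all genes tested were. *Col1a2* lay at 10.9 CPM in wild-type and 9.08 in S138A libraries and overlapped. *Postn* also overlapped, at 0.400 and 0.525 CPM, and *Lum* and *Dcn* lay near 0. The sums were 16.3 to 17.0 and 15.7 to 26.1 CPM for 6 primitive endoderm markers, 5.53 to 8.92 and 5.93 to 13.8 for 4 mesoderm markers, and 47.8 to 80.0 and 53.5 to 69.8 for 4 trophoblast markers. *Tfap2c* made up most of that last sum, while *Krt7*, at 7.77 and 16.8 CPM, and *Cdx2*, at 0.248 and 1.25 CPM, were higher in all 3 S138A libraries. Among the primitive endoderm markers, *Gata6* was lower without overlap, at 2.07 and 1.61 CPM, and the others overlapped. *Dab2* made up most of their highest sum, at 17.5 CPM in S138A C. The part of these markers in the results was not tested.

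Wild-type ESCs expressed nearly the whole family. Levels of different genes were compared as TMM-scaled CPM per kilobase of the union of annotated exons. On that scale *Cdc34*, an E2 of cullin-RING ligases, stood highest, at 116 ± 2.93 (SD, n = 3). It was followed by *Ube2c*, which starts ubiquitin chains for the anaphase-promoting complex (APC/C), at 87.7 ± 8.31. *Ube2z*, an E2 charged by the E1 enzyme UBA6, came next at 68.2 ± 1.29, then *Ube2s*, which extends chains for the APC/C, at 67.0 ± 5.64. *Ube2n*, the gene of UBC13, followed at 63.1 ± 9.47. The libraries of *Cdc34* lay above those of *Ube2c*, and those of *Ube2c* above those of *Ube2z*, whereas *Ube2z*, *Ube2s* and *Ube2n* could not be put in order beyond their spread. Of the 32 neighbouring pairs in the whole order, 22 had overlapping wild-type libraries.

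The choice of length changed the order of some members. Annotated transcripts with retained introns lengthen the exon union, most of all for *Ube2d3*, with 24499 bases of exons against 3833 in the longest coding transcript and 19300 in the longest transcript with a retained intron. Per kilobase of the longest coding transcript, *Ube2s* was highest at 278 ± 23.4 CPM, then *Cdc34* at 145 ± 3.64, *Ube2d3* at 108 ± 24.4 and *Ube2c* at 104 ± 9.86 (SD, n = 3). *Ube2d3* thus ranked 15 with the union of exons, at 16.8 ± 3.82, and 3 with the coding transcript. Of the 10 highest members, 8 were the same under both lengths, and 5 members of the family moved by more than 5 ranks. At the low end both lengths gave the same picture. *Ube2e2*, *Ube2l6*, *Ube2v1* and *Ube2d2b* took the last 4 ranks, at 1.01, 1.28, 0.25 and 0.040 CPM per kilobase of the exon union.

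**Figure D1:**
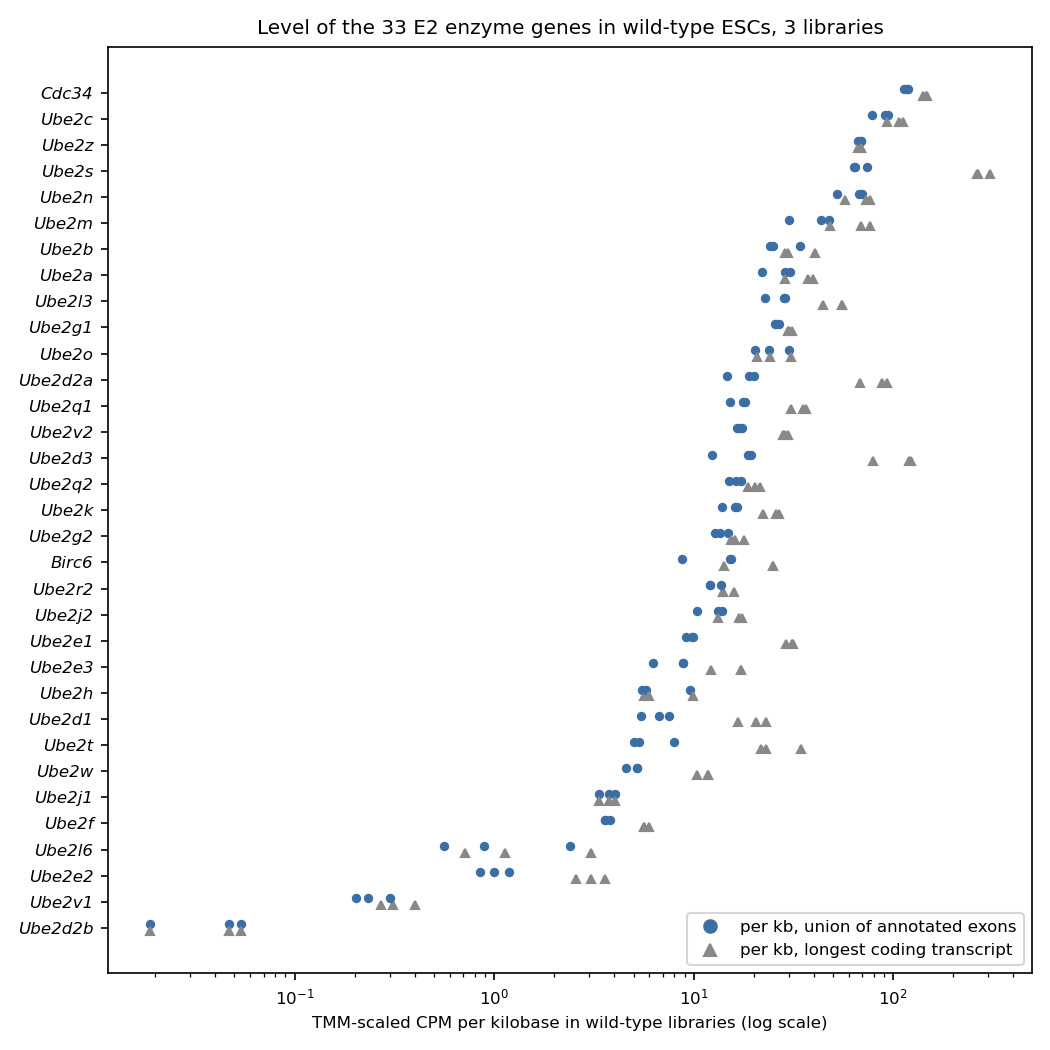
Level of each of the 33 E2 genes in the 3 wild-type libraries, in TMM-scaled CPM per kilobase on a log axis, with circles for the union of annotated exons and triangles for the longest coding transcript. *Cdc34* (116) and *Ube2c* (87.7) lead by the union of exons, and *Ube2d3* moves from 16.8 to 108 with the coding transcript.

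Low levels of 2 members need a remark on counting. *Ube2v1*, which encodes a partner of UBC13 with no catalytic cysteine, had between 21 and 30 counts in each library. In the GRCm38 annotation 61.5% of its exon bases overlap *Gm20431* on the same strand, and *Gm20431* had 0 counts in all 6 libraries. How the authors' counting treated reads that fit both genes is not stated, so the level of *Ube2v1* is uncertain. *Ube2d2b* had 3, 1 and 3 counts in wild-type against 1, 3 and 0 in S138A libraries, and was not tested. The count of 0 in S138A C allows up to 3 counts, or 0.088 CPM before TMM scaling. Overlap with a gene on the opposite strand was largest for *Ube2l3*, with 28.6% of exon bases shared with *Ydjc*, and for *Ube2c*, with 22.8% shared with *Tnnc2*. The kit keeps the strand, but the strand setting of the counting is not stated. *Ube2h* is also less certain than most, because 44.2% of its 50-base windows occur in other transcripts, among them *Gm2058*, which had 10 to 20 counts per library.

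Setting S138A against wild-type libraries asked whether altering 1 E2 protein goes with other levels of the E2 transcripts. No E2 gene passed the threshold of an adjusted p of 0.05 (0 of 32 tested, against 0% of the 16023 genes tested, edgeR's quasi-likelihood test). At an unadjusted p under 0.05 the same test held 5 members (*Ube2g1*, *Ube2v2*, *Ube2k*, *Ube2z* and *Ube2q2*), all lower in S138A cells, where the share over all genes was 6.55% lower and 7.62% higher (14.2% in all). limma-voom also called 0 members, against 0% of all genes. DESeq2 called 2 lower and 0 higher, against 2.33% and 2.62% of all genes (4.96% in all). Members lay on both sides of 0. Their median log2 fold change was -0.07 over the 32 tested members, against 0.02 over all genes tested, and 19 of the 32 lay below 0, where 47.6% of all genes did. With another library scaling the median was -0.07 (RLE) or -0.04 (upper quartile). Summed over all 33 members, the level was 3863, 3820.3 and 3353 CPM in wild-type libraries and 3719, 3582 and 3114 in S138A libraries. The groups overlapped, and an exact two-sided permutation test gave p = 0.5, where 0.1 is the smallest value that 3 libraries against 3 allow. In pairs by column digit, the block used below, S138A was lower in 3 of 3, with a mean log2 difference of -0.08 ± 0.027 (SD). An exact two-sided sign-flip permutation test of these pairs gave p = 0.25, the smallest that 3 pairs allow. As a share of unscaled counts, the family took 0.362%, 0.363% and 0.344% in wild-type against 0.372%, 0.359% and 0.339% in S138A libraries. Without TMM scaling, S138A A thus lay above wild-type 1.

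In 5 members all 3 S138A libraries lay below all 3 wild-type libraries, and in 1 they lay above. Over all genes tested these shares were 10.9% and 11.3%. The 5 were the genes just named, and the 1 was *Ube2e2*. In bulk RNA, fewer cells of a type and less RNA per cell cannot be told apart. By class, 5 of 6 genes of the RAD6, UBC13 and DNA damage class had a fold change below 0, where 47.6% of all genes did. All 3 of the endoplasmic reticulum class lay above 0, none of them by more than 0.08 on the log2 scale. These 3, and *Ube2t* of the former class, changed sign in some of the alternative fits. The 6 genes with separate libraries fall in several classes, with *Ube2g1* and *Ube2k* in the same one, so they are described beside the other members of their class.

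**Figure D2:**
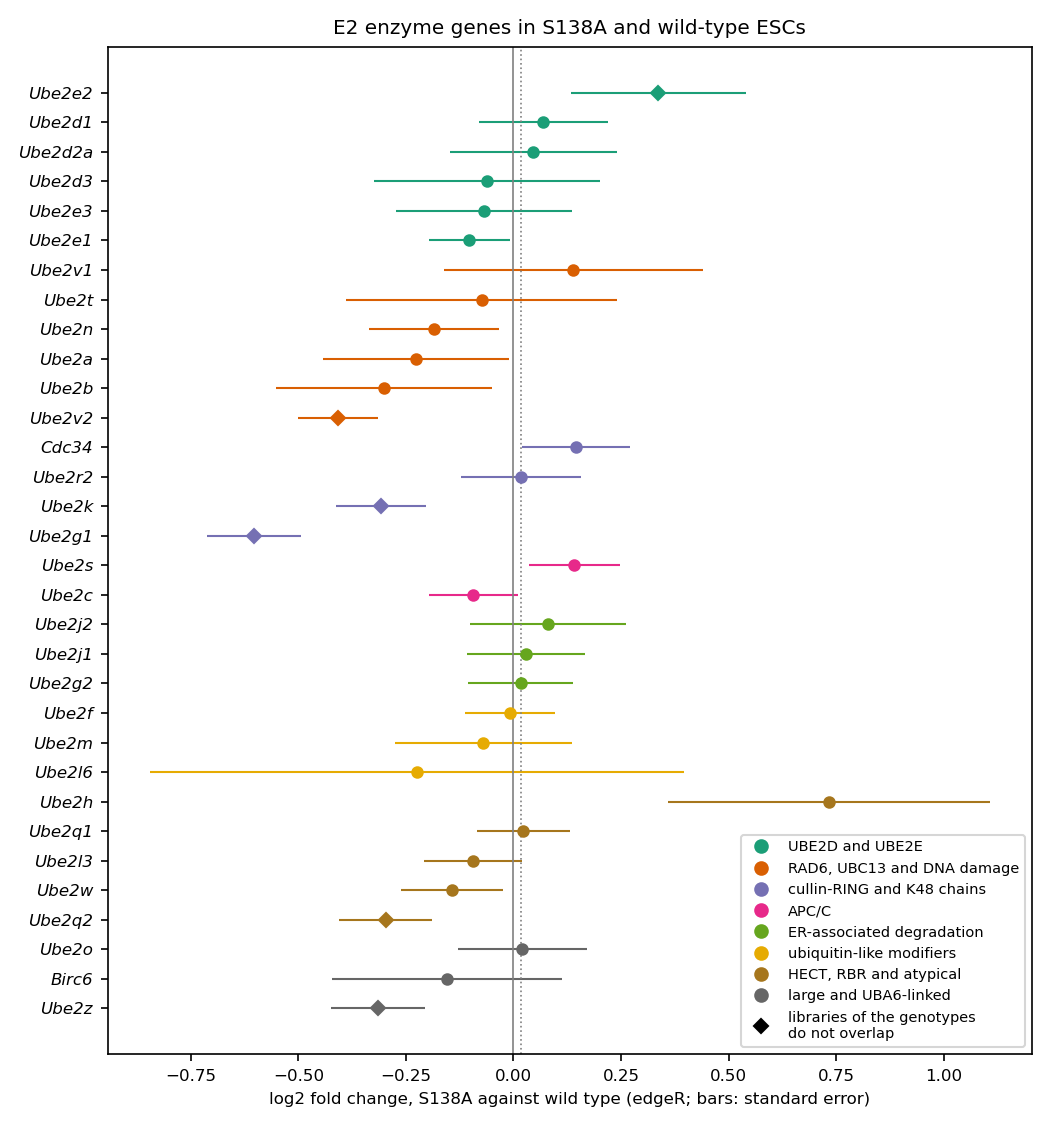
Log2 fold change of the 32 tested E2 genes in S138A against wild-type ESCs from edgeR, with standard errors, coloured by class. Diamonds mark the 6 genes whose libraries do not overlap between genotypes, the dotted line is the median of all genes tested (0.02), and values run from -0.60 for *Ube2g1* to 0.73 for *Ube2h*.

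Among E2s of cullin-RING ligases and degradative chains, *Ube2g1* (ENSMUSG00000020794) showed the lowest fold change of the family. UBE2G1 extends ubiquitin chains on substrates of cullin-RING ligases, and its gene spans 72607283 to 72686481 on chromosome 11 (GRCm38, + strand). It had 117, 123 and 118 CPM in wild-type libraries and 88.1, 77.4 and 70.3 in S138A libraries. The wild-type libraries were close together, and the highest S138A library stayed well below them. The log2 fold change was -0.60 (standard error, SE, of 0.11, unadjusted p = 0.0009), which did not pass after adjustment over all genes (adjusted p = 0.181, edgeR). Blocking on the column digit, *Ube2g1* passed (log2 fold change -0.61, adjusted p = 0.00861), and it also passed with DESeq2 (adjusted p = 0.000261). Over the 15 alternatives its log2 fold change ran from -0.70 to -0.53 and its adjusted p from 0.000261 to 0.623.

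*Ube2k*, an E2 that can build chains by itself, had 130.3, 127 and 109 CPM in wild-type libraries and 105, 95.5 and 95.8 in S138A libraries. The gap between the groups was narrow, with wild-type 3 closest to the S138A libraries. The log2 fold change was -0.31 (SE 0.10, adjusted p = 0.279, edgeR), and with the block it was -0.30 (adjusted p = 0.0275). The adjusted p ran from 0.00625 to 0.685 over the alternatives. The other 2 genes of the class did not follow. *Cdc34* had 187, 184 and 178 CPM in wild-type against 212, 226 and 169 in S138A libraries, and *Ube2r2*, its close relative, had 50.5 to 57.5 and 48.1 to 63.7. For *Cdc34* S138A C lay below every wild-type library and the other S138A libraries above. Its log2 fold change was 0.15 (SE 0.12, adjusted p = 0.646, edgeR), and among the 4 libraries without wild-type 3 and S138A C it was 0.24 (adjusted p = 0.0191, lowest of a range up to 0.911). For *Ube2r2* it was 0.02 (SE 0.14).

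Of the E2s of the RAD6, UBC13 and DNA damage class, *Ube2v2* (ENSMUSG00000022674) was the member whose libraries did not overlap. UBE2V2 pairs with UBC13 and lacks a catalytic cysteine itself, and its gene spans 15552077 to 15595773 on chromosome 16 (GRCm38, - strand). It had 121, 118 and 125 CPM in wild-type libraries and 98.4, 86.3 and 88.8 in S138A libraries, so each genotype formed a tight group. The log2 fold change was -0.41 (SE 0.09, unadjusted p = 0.00324, adjusted p = 0.191, edgeR). It passed under the block (-0.41, adjusted p = 0.0129) and also in DESeq2 (adjusted p = 0.0029), within a range of adjusted p from 0.0029 to 0.623 over the alternatives. Its partner *Ube2n* had 294, 284 and 220.5 CPM in wild-type against 259.9, 242 and 201 in S138A libraries, with wild-type 3 inside the range of the mutant. For *Ube2n* the log2 fold change was -0.18 (SE 0.15, adjusted p = 0.627, edgeR). It did not pass with the block (adjusted p = 0.0808) but passed with a 2-level term for the libraries that stood apart (-0.18, adjusted p = 0.0474) and among the 4 other libraries (-0.21, adjusted p = 0.0314), within a range up to 0.914.

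*Ube2a* and *Ube2b* encode the mouse RAD6 proteins, which act with RAD18 on PCNA and with RNF20 and RNF40 on histone H2B. Both had a fold change below 0, but they differed in opposite directions in the libraries that stood apart. *Ube2a* had 69.0, 65.1 and 49.7 CPM in wild-type against 59.4, 60.3 and 37.4 in S138A libraries, a log2 fold change of -0.23 (SE 0.22, adjusted p = 0.684, edgeR). *Ube2b* had 51.4, 52.96 and 72.8 CPM in wild-type against 40.9, 36.7 and 66.1 in S138A libraries, a log2 fold change of -0.30 (SE 0.25, adjusted p = 0.636, edgeR). *Ube2a* was lowest and *Ube2b* highest, within each genotype, in wild-type 3 and S138A C. Within each pair of libraries with the same column digit, both genes were lower in the S138A library. *Ube2a* did not pass with the block (-0.25, adjusted p = 0.0726) but passed with the 2-level term (-0.25, adjusted p = 0.0361), within a range up to 0.934. *Ube2b* passed with the block (-0.33, adjusted p = 0.0412) and among the 4 other libraries (-0.43, adjusted p = 0.00547), within a range up to 0.855 over the alternatives. *Ube2t*, the E2 of the Fanconi anaemia pathway, had 24.3, 25.6 and 38.5 CPM in wild-type against 18.9, 24.3 and 40.8 in S138A libraries, which overlapped in full.

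*Ube2z* and *Ube2q2* completed the group of lower members. *Ube2z* had 267, 274 and 276 CPM in wild-type against 231, 236 and 190.3 in S138A libraries, a log2 fold change of -0.32 (SE 0.11, adjusted p = 0.285, edgeR). With the block it was -0.32 (adjusted p = 0.0358), within a range from 0.0151 to 0.653. *Uba6*, the E1 that charges UBE2Z, had 71.7, 77.1 and 63.7 CPM in wild-type against 68.2, 53.3 and 47.2 in S138A libraries, which overlapped. For *Uba6* the log2 value was -0.33 (adjusted p = 0.402, edgeR) and passed with the block (-0.35, adjusted p = 0.0468). *Ube2q2*, an atypical E2 with a long N-terminal part, had 69.8, 64.5 and 74.0 CPM in wild-type against 62.2, 53.6 and 53.6 in S138A libraries. Its log2 fold change was -0.30 (SE 0.11, adjusted p = 0.302, edgeR), and it passed with the block (-0.30, adjusted p = 0.0404) but not among the 4 other libraries (-0.22, adjusted p = 0.0857), within a range up to 0.676. Of its windows of 50 bases, 16.4% occur in *Gm4895*. The large E2 genes *Ube2o* and *Birc6* had fold changes of 0.02 and -0.15 on the log2 scale, with SEs of 0.15 and 0.27.

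The highest fold change of the family belonged to *Ube2h*, the E2 of the CTLH ligase complex. It had 26.3, 27.7 and 46.0 CPM in wild-type against 39.8, 39.0 and 87.5 in S138A libraries. Wild-type 3 lay above S138A A and B, so the groups overlapped, although each S138A library was above the wild-type library of the same column digit. The log2 fold change was 0.73 (SE 0.37, adjusted p = 0.434, edgeR). With the block it was 0.68 (adjusted p = 0.00938), and among the 4 other libraries it was 0.54 (adjusted p = 0.00203), within a range of adjusted p up to 0.813. Without S138A C the log2 fold change was 0.24. *Ube2e2*, a relative of the UBE2D genes, had 5.48, 3.92 and 4.64 CPM in wild-type against 5.56, 5.57 and 6.61 in S138A libraries. The groups were separated by a margin of less than 0.1 CPM, and the log2 fold change was 0.34 (SE 0.20, adjusted p = 0.502, edgeR), with adjusted p from 0.134 to 0.86 over the alternatives.

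**Figure D3:**
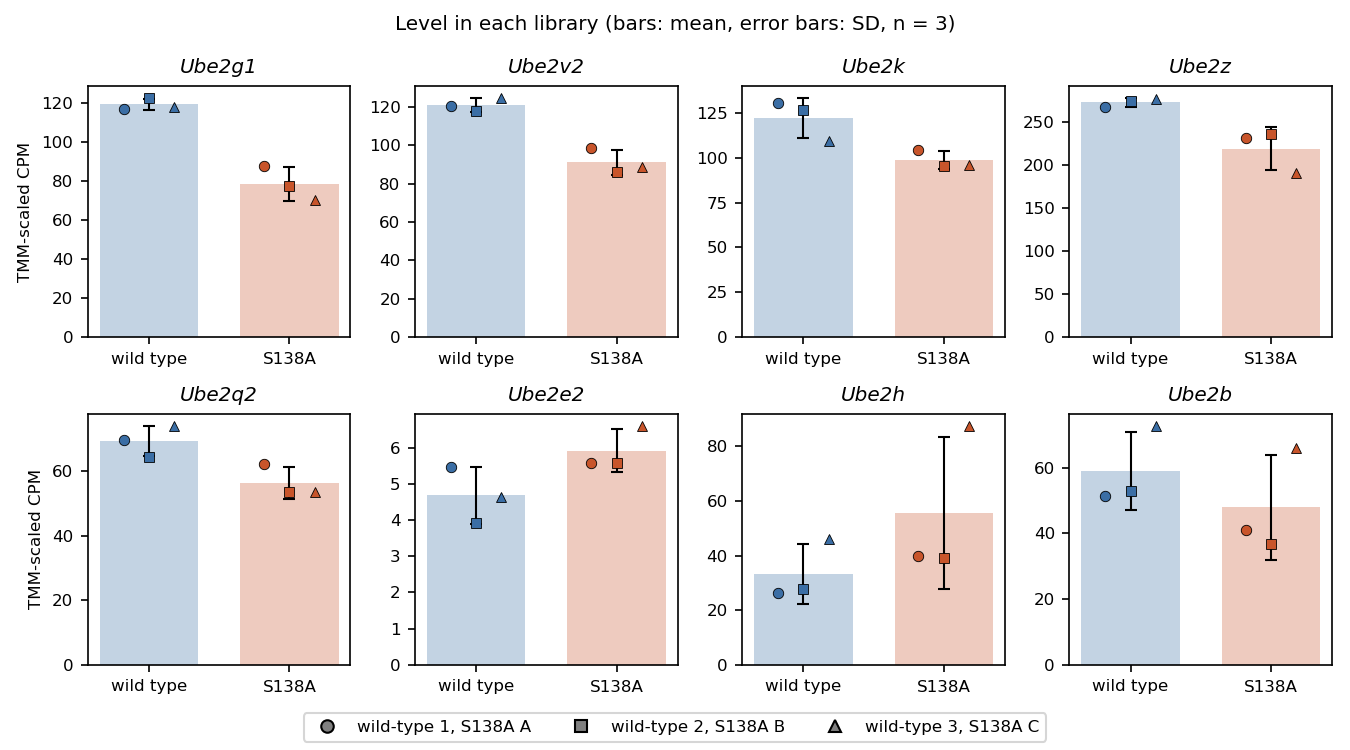
TMM-scaled CPM of 8 E2 genes in each library, with bars for means, error bars for the SD of 3 libraries and triangles for wild-type 3 and S138A C. *Ube2g1* has a mean of 119 in wild-type and 78.6 in S138A libraries with no overlap, while *Ube2h* and *Ube2b* have their highest value in wild-type 3 and S138A C.

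*Ube2d3* (ENSMUSG00000078578; chromosome 3, 135438149 to 135468198, + strand, GRCm38) had 473, 459 and 304 CPM in wild-type against 491, 429 and 265 in S138A libraries. The libraries that stood apart were the lowest of each genotype, and the groups overlapped. The log2 fold change was -0.06 (SE 0.26, adjusted p = 0.945, edgeR), and it lay above 0 without wild-type 1 (0.04), wild-type 2 (0.02) or S138A C (0.16). The log2 fold changes were 0.07 for *Ube2d1*, 0.05 for *Ube2d2a*, -0.10 for *Ube2e1* and -0.07 for *Ube2e3*. None of these 4 had separate libraries. The counts do not read the edited codon, so the genotype was not checked from the table.

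The remaining members had overlapping libraries. *Ube2c* had 204 to 245 CPM in wild-type against 205 to 219.8 in S138A libraries, and *Ube2s* had 327 to 378 and 349 to 399. The fold changes were -0.09 (SE 0.10) and 0.14 (SE 0.11) on the log2 scale, with adjusted p of 0.727 and 0.589 (edgeR). The 3 E2s of degradation at the endoplasmic reticulum, *Ube2g2*, *Ube2j1* and *Ube2j2*, had log2 fold changes between 0.02 and 0.08. *Ube2m* and *Ube2f*, the NEDD8 E2s, had -0.07 and -0.01. *Ube2l6*, the interferon-inducible E2 of ISG15, was low, with 1.12, 1.77 and 4.80 CPM in wild-type against 1.19, 1.85 and 3.56 in S138A libraries. Its highest values lay in wild-type 3 and S138A C, and its log2 fold change was -0.22 (SE 0.62, adjusted p = 0.903, edgeR). *Ube2l3*, which serves HECT and RBR ligases, *Ube2w*, which attaches ubiquitin to N-termini, and *Ube2q1* had log2 fold changes of -0.09, -0.14 and 0.02. Of these *Ube2l3* passed among the 4 other libraries (-0.18, adjusted p = 0.0362, within a range up to 0.97).

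Under the replicate block, 7 of the 32 members passed, 1 higher (*Ube2h*) and 6 lower (*Ube2g1*, *Ube2v2*, *Ube2k*, *Ube2z*, *Ube2q2* and *Ube2b*). In that fit 10.7% of all genes passed as higher and 9.13% as lower. The shares of the 32 members were 3.12% and 18.8%, and in either direction 21.9%, against 19.8% of all genes. Adding a 2-level term that separates wild-type 3 and S138A C from the rest gave 1 higher and 8 lower members, where 14.6% and 13% of all genes passed (27.6% in either direction), and added *Ube2a* and *Ube2n* to the lower members. The 4 other libraries alone called 2 higher and 7 lower, where 15.3% and 14.3% of all genes passed (29.6% in either direction). In that set *Cdc34* was the second higher member, *Ube2l3* and *Ube2n* were among the lower ones and *Ube2q2* was not.

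For most of the family, as for most genes tested, wild-type 3 and S138A C differed from the other libraries of their genotype in the same sense. This is a description of libraries already known to stand apart, with no test. For 25 of the 32 tested members (78.1%) both libraries lay on the same side of the mean of the other 2, where 79.4% of all genes tested did. The largest shift was that of *Ube2l6*, which was higher by 1.66 in wild-type 3 and by 1.18 in S138A C on the log2 scale. *Ube2h* was higher by 0.77 and 1.15, and *Ube2t* by 0.62 and 0.91. These 3 were the members higher by more than 0.5 in both libraries, which 12.9% of all genes were.

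Members lower by more than 0.5 in both libraries were *Birc6*, with differences of -0.81 and -0.61, and *Ube2d3*, with -0.61 and -0.80, where 9.16% of all genes were. BIRC6 is a giant protein that joins an E2 domain to an inhibitor of apoptosis. Members thus differed in both directions between these libraries. *Ube2d2a* (-0.41 and -0.58), *Ube2a* (-0.43 and -0.68), *Ube2m* (-0.59 and -0.47) and *Ube2e3* (-0.50 and -0.54) followed. Across the 32 members Pearson's r between the shifts of the 2 libraries was 0.877, and it was 0.76 across all genes tested. Genes of a library share its depth and preparation and are no independent replicates.

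**Figure D4:**
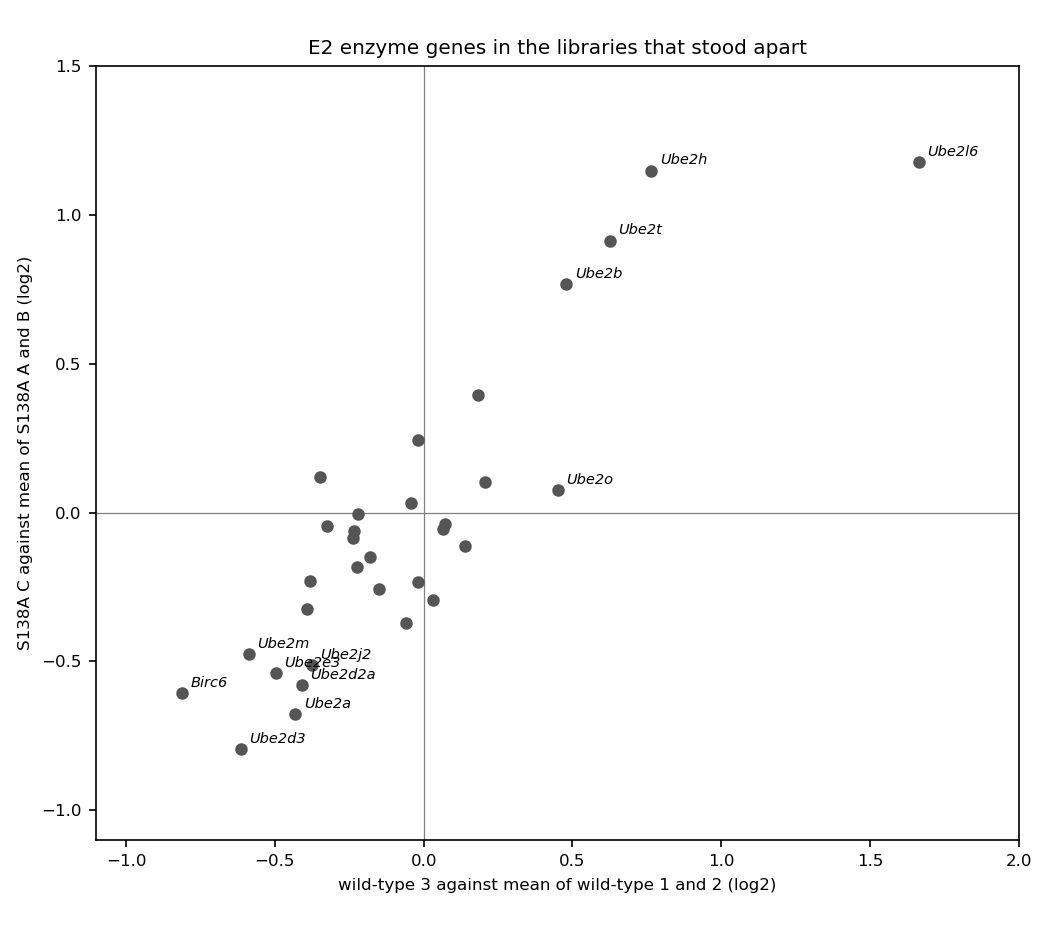
Log2 difference of wild-type 3 from the mean of wild-type 1 and 2 (x axis) and of S138A C from the mean of S138A A and B (y axis) for the 32 tested E2 genes, with 1 point per gene. *Ube2l6*, *Ube2h*, *Ube2t* and *Ube2b* lie at the upper right, and *Birc6* and *Ube2d3* at the lower left.

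Related E2 genes were next compared as ratios of their levels per kilobase of exon union within each library, for 10 pairs. The ratio of *Ube2g1* to *Ube2g2* was 1.89, 1.796 and 2.01 in wild-type against 1.29, 1.17 and 1.25 in S138A libraries. The ratio of *Ube2q1* to *Ube2q2* was 1.12, 1.17 and 0.889 in wild-type against 1.26, 1.42 and 1.27 in S138A libraries. In these 2 pairs the genotypes did not overlap, lower in the mutant for the first and higher for the second. Each gave an exact two-sided permutation p of 0.1, the smallest possible here, and an adjusted p of 0.5 over the 10 pairs. The other 8 pairs overlapped. Among single genes tested, 22.2% did not overlap in either direction, and the share over ratios of other genes was not computed. *Ube2g1* and *Ube2q2* were already among the members with separate libraries, while *Ube2g2* and *Ube2q1* each had a log2 fold change of 0.02.

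Some pairs differed more between libraries of a genotype than between genotypes. The ratio of *Ube2a* to *Ube2b* was 1.26, 1.15 and 0.639 in wild-type against 1.36, 1.54 and 0.529 in S138A libraries, so *Ube2b* led only in wild-type 3 and S138A C. That order was the same per kilobase of the longest coding transcript. *Cdc34* stood 9.26 ± 0.878 times above *Ube2r2* in wild-type and 10.4 ± 2.92 times in S138A libraries (SD, n = 3). *Ube2m* stood 10.9 ± 2.24 and 10.6 ± 2.20 times above *Ube2f*. The ratio of *Ube2c* to *Ube2s* depended on the length used, at 1.32 ± 0.224 in wild-type per kilobase of exon union and 0.377 ± 0.0639 per kilobase of coding transcript.

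**Figure D5:**
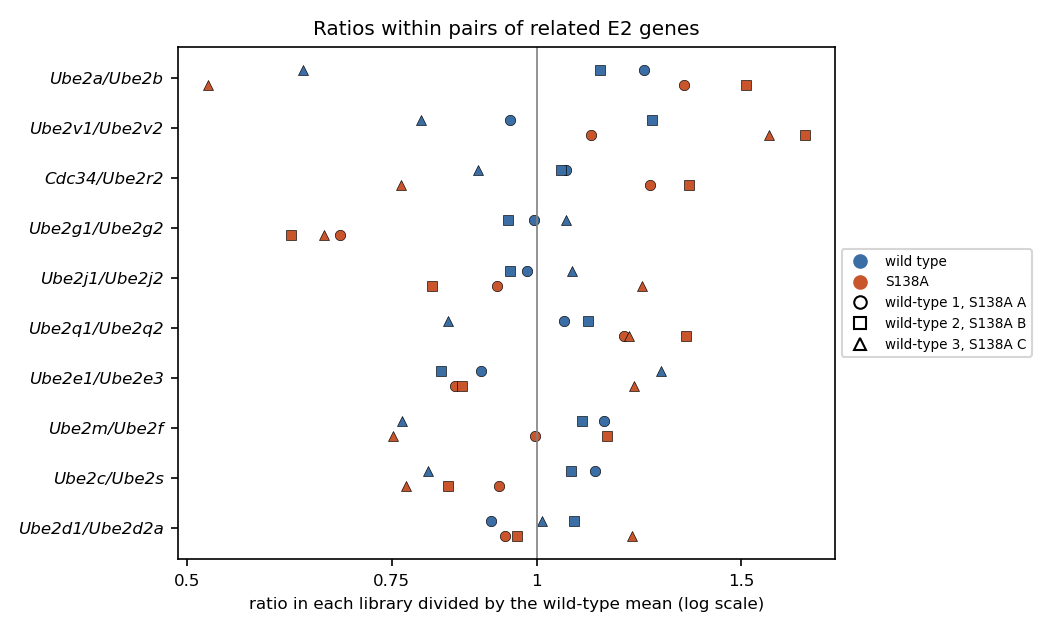
Ratio of the levels of 10 pairs of related E2 genes in each library, divided by the wild-type mean of the pair, on a log axis, with wild-type in blue, S138A in orange and triangles for wild-type 3 and S138A C. *Ube2g1*/*Ube2g2* and *Ube2q1*/*Ube2q2* separate the genotypes, and *Ube2a*/*Ube2b* separates wild-type 3 and S138A C from the rest.

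The genes that work with these E2s were read from lists of partners, of which 69 of 72 genes were tested. In the comparison of genotypes 0 passed (0% of all genes, edgeR), 11 (15.9%) had an unadjusted p under 0.05, against 14.2% of all genes, and DESeq2 called 6 (8.70%), against 4.96%. With the block 15 passed (21.7%), 3 higher and 12 lower, where 19.8% of all genes passed, 10.7% higher and 9.13% lower. Among the 11 genes of the cullin-RING core, 3 had S138A libraries below all wild-type libraries, as 10.9% of all genes did, and 9 had a fold change below 0, as 47.6% of all genes did. *Skp1a*, the adaptor of CUL1 ligases, had 276, 251 and 245 CPM in wild-type against 186, 165 and 143 in S138A libraries, a log2 fold change of -0.64 (SE 0.12, adjusted p = 0.187, edgeR). It passed with the block (-0.65, adjusted p = 0.00509). *Rnf7*, a RING subunit, had a log2 fold change of -0.38 (with the block -0.39, adjusted p = 0.0125), and *Arih1* had -0.15. Of the 13 APC/C genes 4 had separate libraries, all lower, where 10.9% of all genes were. They were *Anapc11*, the RING subunit, with a log2 fold change of -0.45, *Cdc27* with -0.56, *Anapc10* with -0.62 and *Cdc23* with -0.25, and all 4 passed as lower with the block, as 9.13% of all genes did. *Fzr1*, an APC/C activator, passed as higher (0.27, adjusted p = 0.0366), as 10.7% of all genes did.

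In the other lists 1 or 2 genes had separate libraries. *Rps27a*, which encodes ubiquitin fused to a ribosomal protein, had 1417, 1278 and 1342 CPM in wild-type against 1066, 1097 and 939 in S138A libraries (log2 fold change -0.38, adjusted p = 0.212, edgeR, and 0.0163 with the block). *Uba1*, the main ubiquitin E1, overlapped at 578 to 703 and 581 to 657 CPM. Among partners of degradation at the endoplasmic reticulum, *Aup1*, which recruits UBE2G2, stood at a log2 difference of 0.53 (adjusted p = 0.198, edgeR) and *Derl2* of -0.38 (adjusted p = 0.204). Both passed with the block (adjusted p = 0.0174 and 0.0202). *Hltf*, a PCNA ligase that works with UBC13, had -0.41 (adjusted p = 0.251, and 0.0276 with the block). *Senp8*, a NEDD8 protease, had -0.31 (adjusted p = 0.299, and 0.0340 with the block), and *Tsg101*, an E2-like protein without activity, had -0.23 and did not pass with the block. *Isg15* had -0.58, with 9 to 17 counts per library. Of the 4 genes of the ISG15 pathway 2 were tested, and their median log2 fold change was -0.52. The second of them, *Herc6*, had 9 to 110 counts per library, overlapping groups and a log2 fold change of -0.47 (SE 0.82), so this median is uncertain.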

How the data were processed

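PolyA RNA from E14 ESCs was measured in 3 wild-type and 3 S138A libraries, grouped by genotype from the labels. According to the submitters' processing notes, base calling used CASAVA 1.8.4 and alignment to mm9 (NCBIM37) used TopHat2 2.0.11. The authors deposited the unnormalized gene counts that featureCounts gave. The featureCounts version, its strand setting and its treatment of reads with several matches are not given in the sources used here, and such choices would affect members that share sequence or overlap other genes. ERCC RNA was added, but the table holds 0 spike-in rows, so no spike-in scaling was made. Totals of 33227593 to 37169770 counts per library set the counting error, and intervals or floors from counts cover counting error only.

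Genes with low counts were removed with filterByExpr (minimum count 10, minimum total 15). Counts were scaled by TMM and tested with the quasi-likelihood test of edgeR 4.0.16 in R 4.3.3 over all 6 libraries, with Benjamini-Hochberg adjustment over all genes tested and a threshold of 0.05. The standard error of a log2 fold change is its size over the root of the F statistic. Alternatives were DESeq2 1.42.0, limma 3.58.1 (voom), RLE and upper-quartile scaling, other filters, leaving out each library, a replicate block, a 2-level term for wild-type 3 and S138A C, and the 4 other libraries alone. The paired test of the summed level was added after seeing the data. Scripts were tested on simulated data. The 2-level term and the 4-library set are defined by how the libraries group in these data. Differences of single libraries used log2 of CPM with a pseudocount of 0.1. Gene lengths, overlaps, windows of 50 bases and coding sequences came from GENCODE M21 (GRCm38), another build than that of the counts.

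The mutant columns carry no replicate label, and the block pairs them with wild-type by the last digit of the column name. Deviations from the group means correlated at 0.53, 0.493 and 0.753 in the 3 pairs. Exchanging the first and second pair gave 0.515 and 0.526, so the data tie wild-type 3 to S138A C and do not distinguish the other pairings. The genes named in full were members whose libraries did not overlap between genotypes, and *Ube2d3*. *Ube2h*, *Ube2b*, *Ube2a*, *Ube2n*, *Cdc34* and *Ube2l3* passed only under an alternative and were chosen after their values were seen. The members and all gene lists were chosen with earlier results of these data known.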

Additional observations from a re-analysis of the deposited data

How the results depend on the processing

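The median log2 fold change of the tested members stayed below 0 under every alternative run, between -0.10 and -0.02. The number of E2 members past the threshold went from 0 to 2 with DESeq2, 9 with the 2-level term and 9 with the 4 libraries alone. For all genes the numbers were 4 with no filter beyond 1 count, 794 with DESeq2, 4418 with the 2-level term and 4756 with the 4 libraries alone, and between 0 and 79 when a library was left out, the highest without S138A C. With the replicate block 7 members and 3180 of all genes passed, and the block changed no other call of a member than those 7. The fold change of *Ube2d3* ran from -0.25 to 0.16 on the log2 scale when a library was left out, above 0 without wild-type 1 (0.04), wild-type 2 (0.02) or S138A C (0.16). The number of pairs of related genes with separate libraries ran from 2 to 5, the highest without S138A C. With a library left out, groups separate more easily without any difference, so these counts are not on the same footing as that with all 6 libraries. *Cdc34* stood at 144.6 CPM per kilobase when the coding transcript gave the length. Of the partner genes 6 passed with DESeq2, 15 with the replicate block and 23 with the 4 libraries alone, in fits added after seeing the data. Over all genes tested, the shares passing in these fits were 4.96%, 19.8% and 29.6%. The causes of these differences were not tested. For the 13 members that are named by rule or passed under an alternative, 165 of the fold changes under alternatives kept direction and side of the threshold, 27 passed only there, and 3 changed sign, all of *Ube2d3*. Over all 32 tested members, 16 kept their sign in every fit run and 16 changed it in at least 1. With 3 libraries a group, an exact test of a single value cannot pass 0.05, and the depth of *Ube2v1* and *Ube2d2b* was too low to show a small difference.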
